A study of Homo sapiens with 9 samples.

Results

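The 9 genes described here import the raw material of glutathione, make it, keep it reduced, use it or export it. SLC7A11 brings in cystine, GCLC, GCLM and GSS carry out synthesis, GSR and GLRX work in thiol recycling, GSTP1 and MGST1 are glutathione transferases, and ABCC1 is an export pump. They were chosen by symbol and matched to Ensembl identifiers, and they are 9 of 58884 genes listed in the deposited expression files. All 9 passed the filter on low values, which 14454 genes passed in all. Gene coordinates below span whole genes in GENCODE release 29 on GRCh38.

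The cells were HK-2, an immortalised line from human kidney proximal tubule, and RNA was sequenced in 9 libraries, 3 per group. Cells of the lactoferrin plus PM2.5 group received lactoferrin, an iron-binding glycoprotein of milk, for 6 h before 18 h with PM2.5, which is fine airborne particulate matter. Cells of the PM2.5 group had PM2.5 for 24 h and no lactoferrin. Control cells are labelled untreated, and the protocol names a control vehicle. The series text gives 40 mg/ml of lactoferrin and 1 mg/ml of PM2.5, units that could not be checked. The sample records used here hold a PM2.5 dose for the lactoferrin plus PM2.5 group only. Whether the PM2.5 group had the same dose is therefore not known. No group analysed here had lactoferrin without PM2.5, and lactoferrin and the shorter exposure cannot be told apart. All groups are the same immortalised line, and nothing in the labels describes the replicates as separate cultures. The p-values therefore reflect only the scatter among these libraries, which may be technical.

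Glutathione is a tripeptide of glutamate, cysteine and glycine and is the main small thiol of animal cells. Cysteine usually limits its synthesis, and the rate-limiting enzyme is glutamate-cysteine ligase, made of a catalytic subunit (GCLC) and a modifier subunit (GCLM). Kidney proximal tubule takes up and breaks down glutathione at a high rate. Several of these genes are known targets of the transcription factor NRF2, which binds antioxidant response elements, and SLC7A11 is also a known target of ATF4.

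Sequences upstream of the start were matched in RefSeq (GRCh38.p14) for 5 of the 9 genes, GCLC, GCLM, GLRX, GSTP1 and MGST1, the last with 3 starts. The 250 bases before each start were searched on both strands for the antioxidant response element core TGACNNNGC, the AP-1 site TGANTCA and the ATF4 and C/EBP composite core TGATGNAA. Windows of GCLM and GSTP1 held the first motif, which 10.9% of 35116 RefSeq promoters also hold. The GSTP1 match overlaps an AP-1 match, a motif in 6.57% of promoters. The composite core, in 3.14% of promoters, matched in none of the 5 genes. The 2 matches are shown first, with the element in capitals, because GCLM rose with PM2.5 and GSTP1 did not pass the test. The GCLM site is at chr1:93909446-93909474 on the minus strand, 44 to 16 bases before the start, and its element reads on the opposite strand of the printed one. The GSTP1 site is at chr11:67583736-67583764 on the plus strand, 76 to 48 bases before the start. It lies inside the GENCODE span of GSTP1, which begins at 67583595. The GCLM site crosses the edge of the GENCODE span of GCLM at 93909456. Bases upstream of GCLC (chr6:53545130-53545351, minus strand) and MGST1 (chr12:16347395-16347644, plus strand) follow. The GCLC run covers 250 to 29 bases before its start and the MGST1 run 250 to 1 before 1 of its starts. Both runs lie inside the GENCODE spans of their genes. They are shown because GCLC is the partner subunit of GCLM and MGST1 had, with SLC7A11, the highest fold changes of the 9 with PM2.5. They hold no match and so have no capitals.
GCLM site: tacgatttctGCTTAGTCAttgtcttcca
GSTP1 site: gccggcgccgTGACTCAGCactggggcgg
GCLC upstream: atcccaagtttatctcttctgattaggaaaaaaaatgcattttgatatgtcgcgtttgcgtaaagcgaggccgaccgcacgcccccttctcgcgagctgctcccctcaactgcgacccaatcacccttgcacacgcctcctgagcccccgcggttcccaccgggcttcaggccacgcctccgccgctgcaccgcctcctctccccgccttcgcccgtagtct
MGST1 upstream: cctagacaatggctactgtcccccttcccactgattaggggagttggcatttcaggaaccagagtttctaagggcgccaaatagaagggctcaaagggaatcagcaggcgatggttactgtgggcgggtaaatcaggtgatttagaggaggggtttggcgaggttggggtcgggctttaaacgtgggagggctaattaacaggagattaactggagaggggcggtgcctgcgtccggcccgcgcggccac
These matches describe letters in a window and not binding, which was not measured.

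The deposited values are FPKM, read numbers scaled by gene length and library depth. Rebuilt read numbers put 15313461 to 18820004 reads or fragments on genes per library, and the 9 genes rested on 289 (GLRX) to 10600 (MGST1) of them per library. The first principal component (54.4% of the variance) separated the 6 exposed from the 3 control libraries. Lactoferrin plus PM2.5 replicate 1 stood apart on the second (13.5%). The third (8.86%) spread the controls, with control replicate 3 at 27.1, replicate 1 at -20.7 and replicate 2 at -11.3. Of 13 proximal tubule markers, PAX8, CDH6 and CDH2 were expressed, while 10 stayed below 1 FPKM in every library, LRP2, CUBN and AQP1 among them, and SLC22A6 was at 0. The summed proximal tubule markers were 99.9 to 127 FPKM with lactoferrin plus PM2.5, 139 to 144 FPKM with PM2.5 and 148 to 161 FPKM in control. The summed general epithelial markers, 5 genes with CDH1 below 1 FPKM, were 286 to 373 FPKM with lactoferrin plus PM2.5, 281 to 293 FPKM with PM2.5 and 335 to 367 FPKM in control. Fibroblast and endothelial markers, 6 of 9 below 1 FPKM, summed to 50.8 to 55.1 FPKM with lactoferrin plus PM2.5, 66.2 to 68.1 FPKM with PM2.5 and 48.1 to 54.4 FPKM in control. Members of 1 list moved in opposite directions with PM2.5. PAX8 rose (73.7 FPKM with lactoferrin plus PM2.5, 82.3 with PM2.5 and 52.2 in control on average; limma adjusted p = 0.000528) and CDH6 fell (12.6, 14.4 and 47.2 FPKM in the same order; 6.65e-05). LUM, which carried most of the fibroblast sum, rose (51.1, 64.9 and 43.0 FPKM; 0.00156) and COL1A1 fell (1.14, 1.42 and 6.77 FPKM; 1.32e-05). Immune markers (5 of 6) and distal and collecting duct markers (6 of 6) were below 1 FPKM in every library. The part of these marker levels in the results was not tested.

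SLC7A11 (ENSG00000151012, chromosome 4, 138164097 to 138242349, minus strand) encodes xCT, the subunit that exchanges cystine for glutamate. It was at 6.15, 7.03 and 11.3 FPKM with lactoferrin plus PM2.5, at 9.12, 10.3 and 11.0 FPKM with PM2.5 and at 2.51, 3.27 and 2.84 FPKM in control. Every exposed library was above every control library, and lactoferrin plus PM2.5 replicate 3 lay above all PM2.5 libraries while the other libraries of its group lay below them. With PM2.5 SLC7A11 rose by 1.61 ± 0.19 on the log2 scale (SE; 95% interval 1.20 to 2.03; limma adjusted p = 0.000251). This is 3.06-fold on the log2(FPKM + 0.5) scale, which understates changes of low values. RNA of whole dishes was measured, so more cells with the transcript and more transcript per cell cannot be told apart. Between lactoferrin plus PM2.5 and PM2.5 the difference was -0.34 ± 0.19 (interval -0.76 to 0.08; limma adjusted p = 0.452). It was -0.19 without lactoferrin plus PM2.5 replicate 1 and -0.57 without replicate 3 of that group. An antisense gene, SLC7A11-AS1, shares 865 exon bases on the opposite strand and stayed at or below 0.0196 FPKM.

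GCLM (ENSG00000023909, chromosome 1, 93885205 to 93909456, minus strand) encodes the modifier subunit of glutamate-cysteine ligase. It stood at 47.0, 45.9 and 50.8 FPKM with lactoferrin plus PM2.5, at 43.6, 46.4 and 46.5 FPKM with PM2.5 and at 16.8, 17.6 and 15.8 FPKM in control. The 6 exposed libraries lay far above the 3 controls and the 2 exposed groups overlapped. GCLM rose with PM2.5 by 1.37 ± 0.07 (interval 1.21 to 1.52; limma adjusted p = 2.68e-06), or 2.58-fold. Lactoferrin plus PM2.5 against PM2.5 gave 0.07 ± 0.07 (interval -0.08 to 0.23; limma adjusted p = 0.626), an interval that ends well short of the PM2.5 effect.

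GCLC (ENSG00000001084, chromosome 6, 53497341 to 53616970, minus strand), the catalytic subunit, had a smaller log2 fold change than GCLM. It had 3.40, 4.198 and 4.75 FPKM with lactoferrin plus PM2.5, 4.25, 4.23 and 4.30 FPKM with PM2.5 and 2.94, 2.93 and 3.25 FPKM in control. The PM2.5 libraries were close to each other and above all controls, whereas those with lactoferrin plus PM2.5 spread on either side of them. The PM2.5 change was 0.38 ± 0.11 (interval 0.13 to 0.63; limma adjusted p = 0.0248). Leaving out any 1 of control replicate 1, control replicate 2 or the 3 PM2.5 libraries, or testing without the filter on low values, ended this call with adjusted p of 0.0628 to 0.0819, although the log2 fold change stayed between 0.34 and 0.39. Lactoferrin plus PM2.5 against PM2.5 gave -0.06 ± 0.11 (interval -0.31 to 0.19; limma adjusted p = 0.825), and 0.047 without lactoferrin plus PM2.5 replicate 1.

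GSS (ENSG00000100983, chromosome 20, 34928433 to 34956027, minus strand) encodes glutathione synthetase, which adds glycine in the final step. Its levels were 16.3, 15.0 and 15.4 FPKM with lactoferrin plus PM2.5, 15.3, 14.003 and 13.9 FPKM with PM2.5 and 12.9, 12.4 and 11.2 FPKM in control. Exposed and control libraries did not overlap, but the steps between groups were small. The change with PM2.5, 0.18 ± 0.08, did not pass the threshold (interval 0.00 to 0.36; limma adjusted p = 0.103). It passed with library weights, at 0.14 (adjusted p = 0.0414), and was 0.054 (adjusted p = 0.532) with the length and GC trend removed. Lactoferrin plus PM2.5 minus PM2.5 was 0.11 ± 0.08 (interval -0.07 to 0.29; limma adjusted p = 0.528), and 0.065 without lactoferrin plus PM2.5 replicate 1 and 0.17 without PM2.5 replicate 1.

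**Figure D1:**
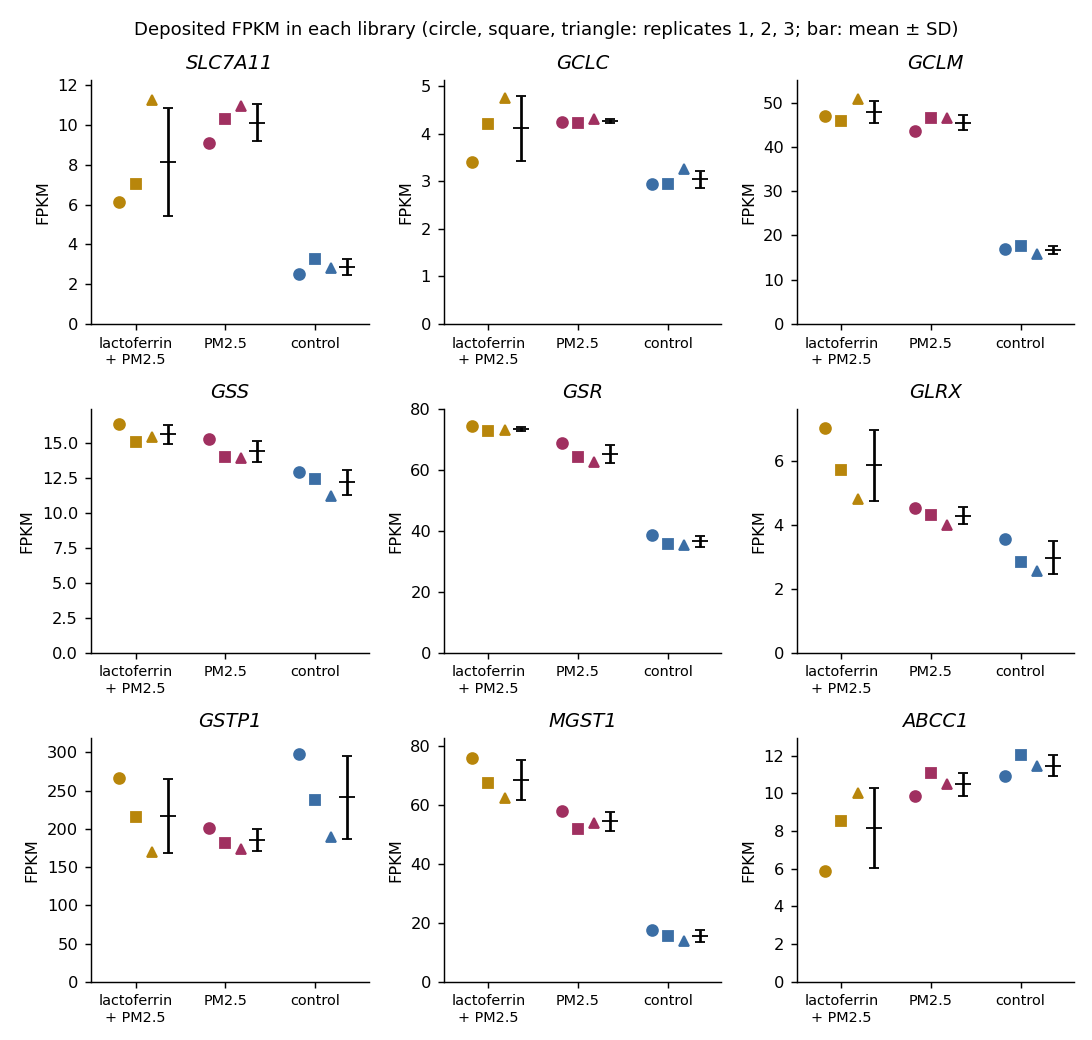
Deposited FPKM (linear axes from 0) of the 9 genes in each library, with circles, squares and triangles for replicates 1, 2 and 3 and the mean ± SD beside them. SLC7A11, GCLC, GCLM, GSS, GSR, GLRX and MGST1 are higher in all 6 exposed libraries than in all 3 controls. Of these, GCLC, GSS and GLRX have the smallest steps. GSTP1 overlaps between groups and ABCC1 has its lowest mean with lactoferrin plus PM2.5, at 8.16 FPKM.

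GSR (ENSG00000104687, chromosome 8, 30678061 to 30727999, minus strand) encodes glutathione reductase, which uses NADPH to return oxidised glutathione to its reduced form. It was measured at 74.4, 73.0 and 73.3 FPKM with lactoferrin plus PM2.5, at 68.8, 64.5 and 62.9 FPKM with PM2.5 and at 38.7, 35.9 and 35.4 FPKM in control. The 3 groups did not overlap. The rise with PM2.5 was 0.78 ± 0.08 (interval 0.60 to 0.95; limma adjusted p = 9.37e-05). The further step to lactoferrin plus PM2.5, 0.17 ± 0.08, did not pass (interval -0.00 to 0.34; unadjusted p = 0.0531 and adjusted p = 0.411 by limma).

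GLRX (ENSG00000173221, chromosome 5, 95751319 to 95823005, minus strand) encodes glutaredoxin 1, which removes glutathione from protein thiols. Its FPKM were 7.05, 5.73 and 4.82 with lactoferrin plus PM2.5, 4.54, 4.31 and 4.01 with PM2.5 and 3.55, 2.85 and 2.55 in control. The 3 groups again did not overlap, and the control with the highest level was close to the lowest PM2.5 library. GLRX rose with PM2.5 by 0.42 ± 0.15 (interval 0.09 to 0.75; limma adjusted p = 0.0492), just inside the threshold. The call was lost without control replicate 2 or 3, any 1 PM2.5 library, or lactoferrin plus PM2.5 replicate 2 (adjusted p 0.0698 to 0.149), with log2 fold changes of 0.35 to 0.48. It was also lost with a pseudocount of 1, upper-quartile scaling, no filter, or the length and GC trend removed (0.0522 to 0.129). Lactoferrin plus PM2.5 against PM2.5 gave 0.40 ± 0.15 (interval 0.07 to 0.73), with an unadjusted p of 0.0232 and an adjusted p of 0.38 by limma. Without lactoferrin plus PM2.5 replicate 1 it was 0.25. The processed pseudogenes GLRXP1, GLRXP2 and GLRXP3 were listed at 0 in every library.

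GSTP1 (ENSG00000084207, chromosome 11, 67583595 to 67586656, plus strand) encodes the cytosolic pi-class transferase, which joins glutathione to electrophiles, and had the highest FPKM of the 9 in every library. It read 266, 216 and 169.6 FPKM with lactoferrin plus PM2.5, 200.5, 182 and 173 FPKM with PM2.5 and 298, 237 and 189 FPKM in control. Replicate 1 was the highest and replicate 3 the lowest in each group, and all groups overlapped. The PM2.5 difference was -0.41 ± 0.19 (interval -0.84 to 0.02; limma adjusted p = 0.125). Removing the trend of each library on transcript length and GC content gave -0.48 (adjusted p = 0.0264), and leaving out control replicate 3 and lactoferrin plus PM2.5 replicate 1 together gave -0.56 (adjusted p = 0.0219), so that GSTP1 passed under each, as it did with library weights (0.00439). Without control replicate 1 the difference was -0.27 (adjusted p = 0.341), and in no fit without 1 library did it pass, at adjusted p of 0.0688 to 0.341. Lactoferrin plus PM2.5 against PM2.5 was 0.21 ± 0.19 (interval -0.22 to 0.64; limma adjusted p = 0.618), and it was 0.03 without lactoferrin plus PM2.5 replicate 1 and 0.38 without replicate 3. The pseudogene GSTP1P1 stayed at or below 0.183 FPKM.

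MGST1 (ENSG00000008394, chromosome 12, 16347142 to 16609259, plus strand) encodes a membrane-bound transferase with peroxidase activity. It was at 75.7, 67.3 and 62.4 FPKM with lactoferrin plus PM2.5, at 57.9, 51.7 and 53.6 FPKM with PM2.5 and at 17.5, 15.5 and 13.7 FPKM in control. No 2 groups overlapped. MGST1 rose by 1.73 ± 0.11 with PM2.5 (interval 1.49 to 1.97; limma adjusted p = 6.69e-06), which is 3.32-fold. Which of MGST1 and SLC7A11 changed more depended on the scale, as limma-voom gave 1.76 for MGST1 and 1.77 for SLC7A11, and removal of the length and GC trend gave 1.81 and 1.91. With lactoferrin plus PM2.5 the level was 0.33 ± 0.11 above PM2.5 on the log2 scale (interval 0.08 to 0.57), and this missed the threshold, at an unadjusted p of 0.0139 and an adjusted p of 0.356 by limma.

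ABCC1 (ENSG00000103222, chromosome 16, 15949577 to 16143074, plus strand) encodes MRP1, a pump that exports glutathione conjugates and oxidised glutathione. It had 5.87, 8.54 and 10.1 FPKM with lactoferrin plus PM2.5, 9.87, 11.1 and 10.5 FPKM with PM2.5 and 10.9, 12.0 and 11.5 FPKM in control. Libraries with lactoferrin plus PM2.5 all lay below the controls and overlapped the PM2.5 group. The PM2.5 difference was -0.17 ± 0.15 (interval -0.52 to 0.17; limma adjusted p = 0.405). Lactoferrin plus PM2.5 against PM2.5 gave -0.37 ± 0.15 (interval -0.72 to -0.03), with an unadjusted p of 0.036 and an adjusted p of 0.397 by limma, and -0.18 without lactoferrin plus PM2.5 replicate 1.

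With PM2.5 against control, 6 of the 9 genes rose, 0 fell and 3 did not pass, in limma at an adjusted p under 0.05 over 14454 genes. Over all tested genes, 35.0% were called in this comparison, 18.5% higher and 16.6% lower. The 6 are SLC7A11, GCLC, GCLM, GSR, GLRX and MGST1, that is, cystine uptake, both ligase subunits, the reductase, the glutaredoxin and the membrane transferase. Their log2 fold changes ran from 0.38 to 1.73, and the median over the 9 was 0.42 against 0.00 over all tested genes. FPKM of the groups did not overlap for 7 of the 9, GSS included, against 53.6% of all genes. Leaving out 1 library at a time gave 4 to 6 called genes, and GCLM, GSR, MGST1 and SLC7A11 were called in each of 21 alternative settings.

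**Figure D2:**
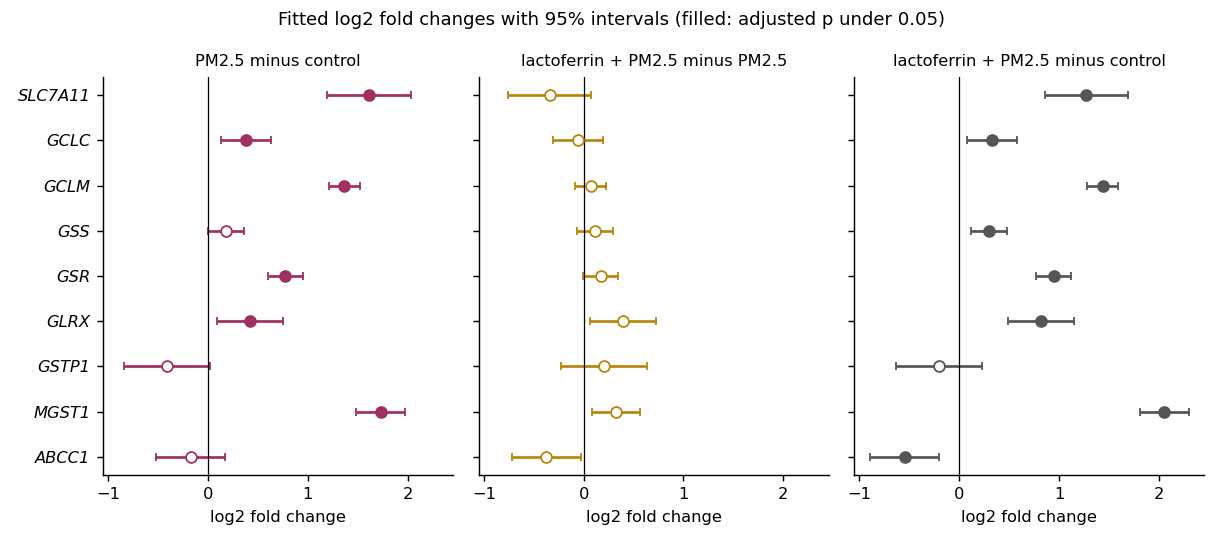
Log2 fold changes of the 9 genes with 95% intervals from limma in the 3 comparisons, filled where the adjusted p was under 0.05. With PM2.5 against control 6 are filled and lie above 0, none is filled between lactoferrin plus PM2.5 and PM2.5, and between lactoferrin plus PM2.5 and control 7 are filled above 0 and ABCC1 below.

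Lactoferrin plus PM2.5 against PM2.5 compared groups that differed in lactoferrin and in hours of PM2.5, which cannot be told apart. Between these groups limma called 0 of the 9. Only 7 of 14454 genes were called in this comparison, or 0.0484% (0.0208% higher and 0.0277% lower), and 0 to 6 when any 1 library was left out, the 0 without PM2.5 replicate 1 or 2 or lactoferrin plus PM2.5 replicate 2. An unadjusted p under 0.05 was reached by GLRX, MGST1 and ABCC1, 3 of 9, against 12.2% of all tested genes. With weights for library quality 5 were called, GSR, GLRX and MGST1 higher and SLC7A11 and ABCC1 lower. The weighted fit called 2852 of all 14454 tested genes, 1419 higher and 1433 lower. These weights were 0.228, 4.10 and 0.548 for lactoferrin plus PM2.5 replicates 1 to 3, so that group rested mostly on replicate 2. Limma-voom on rebuilt counts called 0. The log2 difference was positive for 6 of the 9, with a median of 0.11 against -0.00 over all genes. Groups did not overlap for GSR, GLRX and MGST1, each higher with lactoferrin plus PM2.5, against 21.1% of all genes. For GCLM the 95% interval of the difference lay within -0.08 and 0.23 and for SLC7A11 it reached from -0.76 to 0.08, so the precision of this comparison differed between genes.

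Against control, which shares its libraries with the comparisons above, 7 of the 9 genes rose with lactoferrin plus PM2.5 and ABCC1 fell, while GSTP1 did not pass. Of all tested genes 38.2% were called, 19.6% higher and 18.6% lower. MGST1 stood 2.05 higher on the log2 scale (limma adjusted p = 2.16e-06) or 4.15-fold, GCLM 1.44 (1.4e-06), SLC7A11 1.27 (0.000721), GSR 0.94 (2.28e-05) and GLRX 0.82 (0.0022). GCLC at 0.33 (limma adjusted p = 0.043), GSS at 0.30 (0.0168) and ABCC1 at -0.55 (0.0194) were nearer the threshold. GSTP1 read -0.20 (limma adjusted p = 0.433), and it was -0.025 without lactoferrin plus PM2.5 replicate 3, -0.056 without control replicate 1, -0.34 without control replicate 3 and -0.38 without lactoferrin plus PM2.5 replicate 1. Without control replicate 2 the count was 5 in place of 8, since GCLC, GSS and ABCC1 then had adjusted p of 0.124, 0.0574 and 0.0546. GCLC also lost its call without control replicate 1, any 1 PM2.5 library, or lactoferrin plus PM2.5 replicate 2 or 3 (adjusted p 0.0521 to 0.12). ABCC1 was at -0.36 without lactoferrin plus PM2.5 replicate 1, still called. No filter or a fit of only the 6 libraries compared ended the calls of GCLC (0.104 and 0.0733) and ABCC1 (0.0595 and 0.0521), and removing the length and GC trend ended that of GSS (0.0740). Without control replicate 3 and lactoferrin plus PM2.5 replicate 1 together, GSS did not pass (0.0590) and GSTP1 did, at -0.52 (0.0417). FPKM did not overlap between the groups for 8 of the 9, against 47.5% of all genes.

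FPKM is scaled to gene length, so the levels of the 9 genes can be ordered, although each is divided by a union exon model, which is longer than the longest transcript for 8 of the 9 (the exception is SLC7A11) and lowers the value. The model has 7440 bases against 2152 for MGST1, 8646 against 3813 for GCLC, 6174 against 3019 for GSS and 6508 against 3407 for GLRX, and the gap is smaller for the others. Places in the order, and the size of ratios between genes, depend on these lengths, while differences between libraries in 1 gene do not. With lactoferrin plus PM2.5 the order of mean FPKM was GSTP1, GSR, MGST1, GCLM, GSS, ABCC1, SLC7A11, GLRX and GCLC, and the neighbours GSR and MGST1, ABCC1 and SLC7A11, and SLC7A11 and GLRX overlapped. With PM2.5 it was the same but for MGST1 (54.4 ± 3.22 FPKM, SD, n = 3) now clear of GSR (65.4 ± 3.06 FPKM), with overlap of ABCC1 with SLC7A11 and of GLRX with GCLC. In control GCLM (16.7 ± 0.898 FPKM) stood above MGST1 (15.6 ± 1.94 FPKM) with overlap, GSS overlapped ABCC1, and GCLC, GLRX and SLC7A11 shared the bottom near 3 FPKM. SLC7A11 thus took the last place in control at 2.87 ± 0.383 FPKM and the seventh in the exposed groups.

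Ratios within a library show how the partners of a complex stood to each other, and no test was made on them. GCLM over GCLC was 13.8, 10.9 and 10.7 with lactoferrin plus PM2.5, 10.2, 11.0 and 10.8 with PM2.5 and 5.72, 6.00 and 4.86 in control. All exposed libraries were above all controls, with means of 11.8 ± 1.74 with lactoferrin plus PM2.5, 10.7 ± 0.385 with PM2.5 and 5.53 ± 0.591 in control (SD, n = 3 each). SLC7A11 over SLC3A2, whose product is the heavy chain that carries xCT to the membrane, was 0.163, 0.150 and 0.238 with lactoferrin plus PM2.5, 0.202, 0.263 and 0.269 with PM2.5 and 0.157, 0.203 and 0.181 in control. These ratios overlapped between groups, and SLC3A2 itself also rose with PM2.5 (values below).

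**Figure D3:**
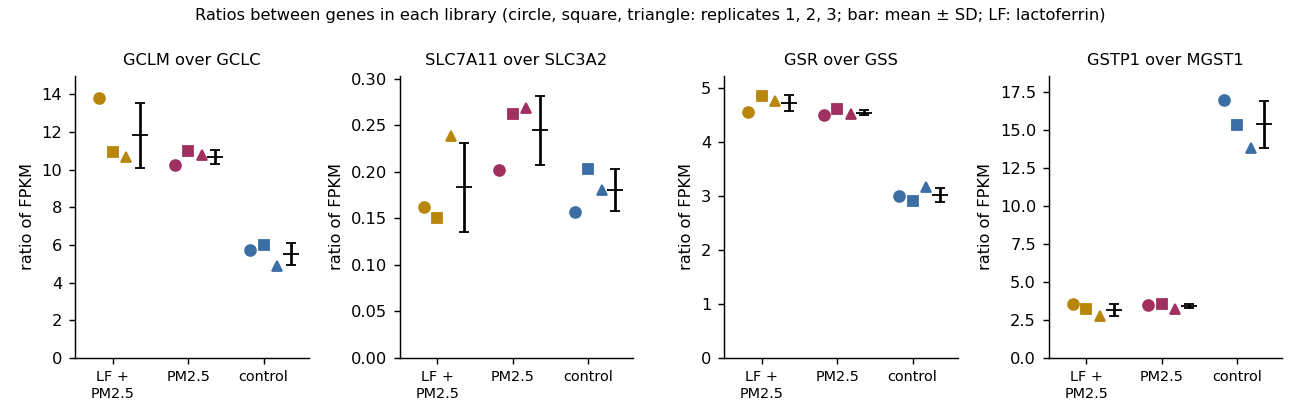
Ratios of FPKM between genes in each library (axes from 0), with circles, squares and triangles for replicates 1, 2 and 3 and mean ± SD bars. GCLM over GCLC and GSR over GSS are higher in all 6 exposed libraries than in the 3 controls, SLC7A11 over SLC3A2 overlaps between groups, and GSTP1 over MGST1 is 2.72 to 3.52 in exposed libraries and 13.9 to 17.0 in control.

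The remainder of the pathway was read from 8 lists of 78 genes, 60 of them tested. In limma 20 rose and 2 fell with PM2.5, so that 22 of 60 were called, close to the 35.0% of all tested genes, of which 18.5% were higher and 16.6% lower. The median log2 fold change was 0.22 against 0.00 over all genes. With the length and GC trend of each library removed, the split was 24 higher and 8 lower. Between lactoferrin plus PM2.5 and PM2.5, limma and limma-voom called 0, at a median log2 difference of 0.07. Library weights called 14, in a fit that called 2852 of all 14454 tested genes. Of the 60, 10 had an unadjusted p under 0.05, against 12.2% of all tested genes. Against control, 26 were higher with lactoferrin plus PM2.5 and 3 were lower, where 19.6% of all tested genes were higher and 18.6% lower.

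The list for supply of cystine, cysteine and glutamate, which also holds carriers of other amino acids, held the most calls. Of 13 tested genes 8 were higher with PM2.5 and 0 lower, at a median of 0.61. Over all tested genes 18.5% were higher and 16.6% lower. SLC6A9, a glycine carrier, rose by 1.602 ± 0.13 (limma adjusted p = 2.94e-05), to 2.61 ± 0.324 FPKM with PM2.5, against 0.499 ± 0.0107 FPKM in control. SLC7A5, the large neutral amino acid carrier that also pairs with SLC3A2, rose by 1.38 ± 0.16 (limma adjusted p = 0.000293). SLC3A2 had 44.0 ± 5.36 FPKM with lactoferrin plus PM2.5, 41.7 ± 3.06 FPKM with PM2.5 and 15.9 ± 0.199 FPKM in control. Its rise with PM2.5 was 1.31 ± 0.10 (limma adjusted p = 1.9e-05), beside 1.61 for its partner SLC7A11. CTH, which makes cysteine from cystathionine, rose by 1.26 ± 0.10 (limma adjusted p = 2.71e-05), at 19.5 ± 1.61 FPKM with PM2.5 and 7.61 ± 0.896 FPKM in control.

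In glutathione breakdown 2 of 9 tested genes rose with PM2.5, near the 18.5% of all tested genes called higher, and 0 fell. CHAC1, which cleaves glutathione inside the cell, was at 8.58 ± 1.496 FPKM with lactoferrin plus PM2.5, 9.29 ± 2.48 FPKM with PM2.5 and 2.80 ± 0.838 FPKM in control, a rise of 1.53 ± 0.22 with PM2.5 (limma adjusted p = 0.000892). CNDP2, a cysteinylglycine peptidase, rose by 0.36 ± 0.08 (limma adjusted p = 0.00792). GGT1, the surface enzyme that starts glutathione breakdown outside the cell and marks the proximal tubule brush border, was near the filter at 0.643 ± 0.129 FPKM with lactoferrin plus PM2.5, 0.750 ± 0.231 FPKM with PM2.5 and 0.673 ± 0.164 FPKM in control (limma adjusted p = 0.83 for PM2.5 against control), and its near-identical copies make these values uncertain.

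Among 10 other transferases tested, 2 rose with PM2.5, again near the 18.5% over all tested genes, and 0 fell. GSTO1, the omega-class enzyme, rose by 0.80 ± 0.18 (limma adjusted p = 0.00842), with 139 ± 29.8 FPKM with lactoferrin plus PM2.5, 96.2 ± 9.47 FPKM with PM2.5 and 53.7 ± 11.3 FPKM in control. GSTCD rose by 0.31 ± 0.09 (limma adjusted p = 0.0227). Between lactoferrin plus PM2.5 and PM2.5, 9 of these 10 had a positive log2 difference and 0 were called, at a median of 0.20. Glutathione peroxidases had 2 of 4 tested genes lower with PM2.5 and 0 higher, beside 16.6% lower over all tested genes. These were the 2 lower calls among the 60 pathway genes, but the number of lower calls ran from 1 to 13 over the alternatives, and several fits called more than 4, so other lists then held lower calls too. It was 8 with the length and GC trend removed or the replicate block, 9 without lactoferrin plus PM2.5 replicate 1 and 13 with library weights. GPX4, which reduces lipid hydroperoxides at the expense of glutathione, had 106 ± 24.6 FPKM with lactoferrin plus PM2.5, 89.1 ± 12.6 FPKM with PM2.5 and 157 ± 31.0 FPKM in control, a fall of -0.86 ± 0.19 (limma adjusted p = 0.00806). GPX8 fell by 0.22 on the log2 scale (limma adjusted p = 0.0339). Of 3 other glutaredoxins GLRX3 rose, by 0.48 ± 0.11 (limma adjusted p = 0.0107), and of 3 glyoxalases and thioester hydrolases 0 passed.

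Among 8 pumps and mitochondrial carriers, 3 rose with PM2.5 and 0 fell, beside 18.5% higher and 16.6% lower over all tested genes. In either direction the share called was near the 35.0% of all tested genes. ABCC3, a relative of ABCC1, rose by 1.94 ± 0.12 (limma adjusted p = 7.74e-06), with 5.28 ± 0.803 FPKM with lactoferrin plus PM2.5, 6.66 ± 0.615 FPKM with PM2.5 and 1.31 ± 0.143 FPKM in control. ABCC2 (0.62, limma adjusted p = 0.0249) and ABCG2 (0.35, limma adjusted p = 0.0498) rose at levels below 1.1 FPKM in the PM2.5 and control libraries. Of 10 transcripts of NRF2, its partners and ATF4, 4 rose with PM2.5 and 0 fell, at a median of 0.22. In either direction this share called is also close to 35.0%, while 18.5% of all tested genes were called higher. NFE2L2, which encodes NRF2, was at 23.9 ± 1.59 FPKM with lactoferrin plus PM2.5, 24.0 ± 2.07 FPKM with PM2.5 and 28.98 ± 4.22 FPKM in control, a difference with PM2.5 of -0.31 ± 0.13 that did not pass (limma adjusted p = 0.0919). KEAP1, its inhibitor, was at 0.19 ± 0.09 (limma adjusted p = 0.144). SQSTM1, the autophagy receptor that binds KEAP1, rose by 1.87 ± 0.10 (limma adjusted p = 3.96e-06), MAFG by 1.45 ± 0.11 (2.04e-05) and MAFF by 0.85 ± 0.08 (4.94e-05), the last 2 being small partners of NRF2. ATF4 rose by 0.47 ± 0.12 (limma adjusted p = 0.0136).

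**Figure D4:**
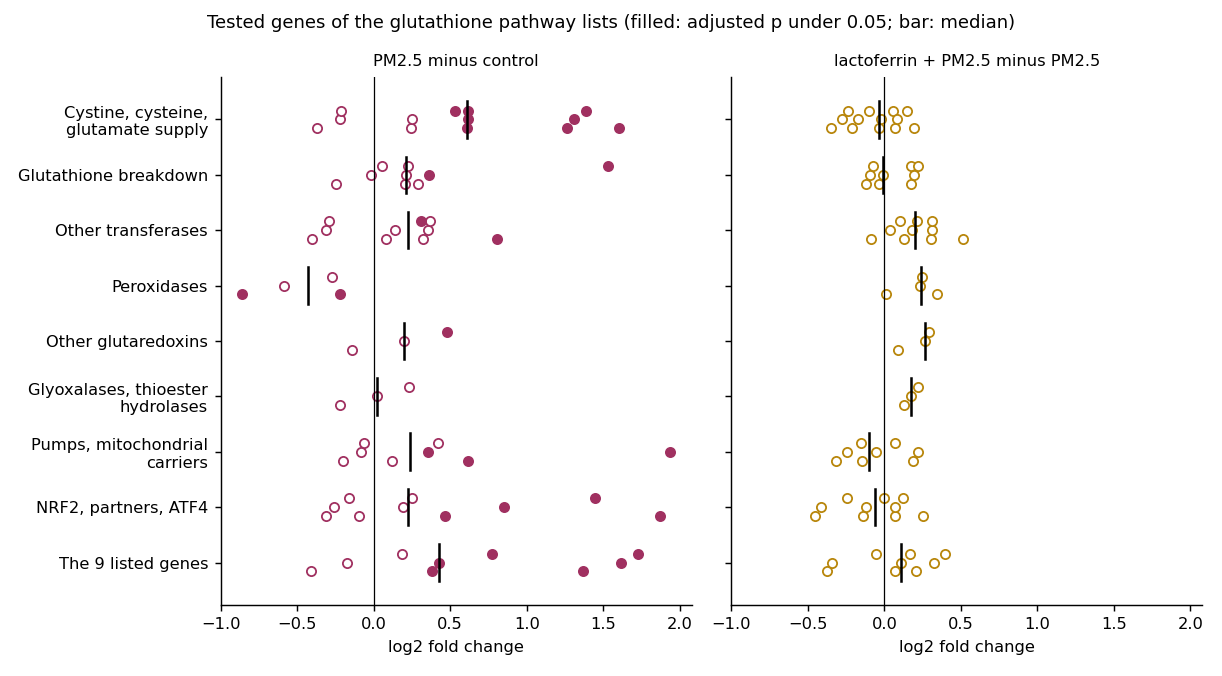
Log2 fold changes of each tested gene of 8 glutathione pathway lists and of the 9 listed genes, for PM2.5 minus control and for lactoferrin plus PM2.5 minus PM2.5, filled where the limma adjusted p was under 0.05, with bars at the medians. With PM2.5 the supply list has a median of 0.61 and the peroxidases -0.43, and no point is filled in the comparison of lactoferrin plus PM2.5 and PM2.5.

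Within groups the 9 genes did not spread alike. With lactoferrin plus PM2.5, GSTP1 deviated from its group mean by 0.35, 0.01 and -0.36 (log2, replicates 1 to 3) and GLRX by 0.29, -0.02 and -0.27, whereas SLC7A11 deviated by -0.31, -0.16 and 0.47 and ABCC1 by -0.38, 0.09 and 0.29. Replicate 1 was thus high for GSTP1, GLRX and MGST1 and low for SLC7A11, ABCC1 and GCLC, and replicate 3 was the reverse. GCLM stayed within 0.06 of its mean in this group. Over all genes, the median deviation of 3117 genes with transcripts under 1500 bases minus that of 3514 genes over 5000 bases was 0.24, -0.02 and -0.22 in replicates 1 to 3 with lactoferrin plus PM2.5, 0.11, -0.06 and -0.05 with PM2.5 and 0.15, 0.00 and -0.13 in control. By longest transcript, GSTP1 (1681 bases) and MGST1 (2152 bases) are the shortest of the 9, and SLC7A11 (9645 bases) and ABCC1 (6594 bases) the longest. The length trend was not followed gene by gene. GSS (3019 bases) and GSR (3192 bases) are shorter than GLRX (3407 bases). They deviated by 0.09 and 0.05 in lactoferrin plus PM2.5 replicate 1, against 0.29 for GLRX. GCLM (4857 bases) is longer than GCLC (3813 bases) but deviated less in that library, by 0.00 against -0.21. The part of this trend in the differences between groups was not tested beyond the values without it, where lactoferrin plus PM2.5 minus PM2.5 was -0.27 for SLC7A11, -0.23 for ABCC1, 0.38 for GLRX and 0.22 for MGST1.

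**Figure D5:**
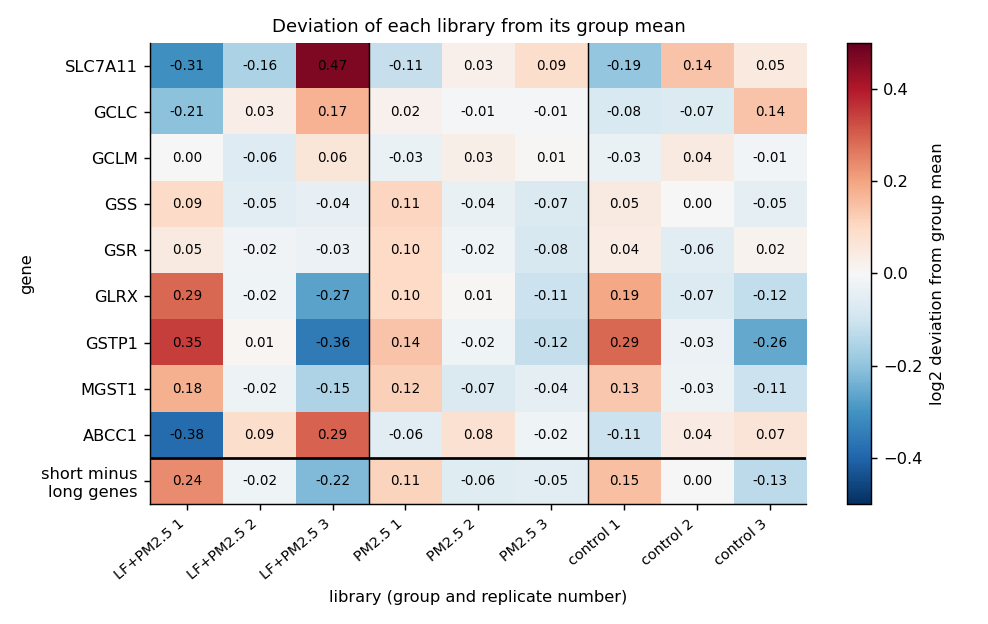
Log2 deviation of each library from its group mean for the 9 genes (colour scale and printed values), with the last row giving the median deviation of genes with transcripts under 1500 bases minus that of genes over 5000 bases. In the lactoferrin plus PM2.5 libraries GSTP1 ranges between -0.36 and 0.35, ABCC1 between -0.38 and 0.29 and the bottom row between -0.22 and 0.24.

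The genes most like each member were taken by Pearson's r of log2 values over the 9 libraries, among 6592 tested genes with a mean of at least 5 FPKM. The libraries share 3 groups, so a large group difference alone gives a high r. For GCLM they were SLC35G2 (r = 0.999), ACSL1 (0.998), RRAGD (0.996), INSIG1 (0.996) and RAB29 (0.996), and 433 genes reached 0.95. For SLC7A11 they were SLC18B1 (0.991), SCARB2 (0.990), XPOT (0.986), GNA13 (0.986) and EDEM1 (0.986), and 146 genes reached 0.95. The closest gene was NQO1 for MGST1 (0.999), TRMT1 for GSR (0.998), TXN for GLRX (0.996), COX14 for GSTP1 (0.997), COL8A1 for ABCC1 (0.993), SQLE for GCLC (0.985) and SAT2 for GSS (0.984). These values describe the libraries and carry no test. Deviations of libraries within groups also enter r, and the FPKM of GSTP1 overlapped between all groups. The part of the length trend in r was not tested.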

How the data were processed

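Total RNA was sequenced in 9 libraries. Per the submitters' processing notes, reads were handled with HISAT2 2.1.0, featureCounts 1.6.0, Trimmomatic 0.38, DESeq2 1.22.1, MultiQC, FastQC and CASAVA on build GRCh38, in roles those notes do not state. Annotation release and strand setting: not given in the sources used here. The authors deposited 1 file of FPKM values per sample. The unit is read from the values: multiplied by GENCODE release 29 union exon length (58611 identifiers matched), 85.9% to 87.2% of values under 200 reads came out whole within 0.05. That rescaling also gave the read numbers quoted.

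Each library was scaled by its TMM (trimmed mean of M) factor, 0.931 to 1.03. log2(FPKM + 0.5) was fitted in limma 3.58.1 (R 4.3.3) to 3 group means over all 9 libraries, using eBayes with a mean trend and robust variances. Genes at 0.5 FPKM or more in 3 or more libraries were tested, and p-values were adjusted by Benjamini-Hochberg over all 14454. The code, in Python 3.11.15 and R with figures from matplotlib 3.10.9, was tested on simulated data. The members, pathway lists and named genes were chosen with earlier results of these data known. Named were all members, and per list the called genes with the largest PM2.5 change, at most 4, plus SLC3A2, CHAC1, GGT1, NFE2L2, KEAP1 and ATF4. Alternatives changed scaling, pseudocount, filter, test, samples in the fit, a replicate block, library weights and 1 library at a time. Removal of the length and GC trend (a spline per library) was added after seeing the data. A gene of the marker lists is not reported here.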

Additional observations from a re-analysis of the deposited data

How the results depend on the processing

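Under 21 alternatives the count of the 9 genes called with PM2.5 against control was 4 to 8, the 8 with library weights. Single-gene fold changes kept direction and call in 167 of 189 cases there, in 182 of 189 between lactoferrin plus PM2.5 and PM2.5, and in 173 of 189 for lactoferrin plus PM2.5 against control. The sign reversed for GCLC in lactoferrin plus PM2.5 against PM2.5, at 0.047 without lactoferrin plus PM2.5 replicate 1 and 0.052 without that library and control replicate 3 together, against -0.06, with a range of -0.14 to 0.047 when 1 library was left out; the cause was not tested. Library weights, for which a gene-by-gene estimate was used since the default estimate did not converge, moved the counts most. They called 5 of the 9 genes in lactoferrin plus PM2.5 against PM2.5 in place of 0, and 14 other pathway genes in place of 0. Other pathway genes went to 42 in place of 22 with PM2.5 against control and to 46 in place of 29 for lactoferrin plus PM2.5 set against control. All genes called became 7899 in place of 5064 with PM2.5 against control, 2852 in place of 7 between lactoferrin plus PM2.5 and PM2.5, and 8457 in place of 5523 for lactoferrin plus PM2.5 set against control. The 7 genes called in lactoferrin plus PM2.5 against PM2.5 became 16 by limma-voom, 23 with the length and GC trend removed, 4 with only the 6 libraries compared and 11 without control replicate 3 and lactoferrin plus PM2.5 replicate 1; the cause was not tested. Leaving out 1 library gave 0 to 6 of all genes and 0 of the 9 in that comparison. In PM2.5 against control it gave 4 to 6 of the 9, 18 to 33 other pathway genes and 3705 to 5866 genes in all. In lactoferrin plus PM2.5 against control it gave 5 to 8 of the 9, 21 to 35 other pathway genes and 4163 to 5408 genes in all. Same-numbered libraries correlated between -0.07 and 0.18, low values that do not settle whether the numbers pair the samples. With the replicate block 13 of all genes were called in lactoferrin plus PM2.5 against PM2.5, 7 of the 9 genes in PM2.5 against control and 8 in lactoferrin plus PM2.5 against control, and GSTP1 gained a call with PM2.5 (limma adjusted p = 0.0108). Of the libraries, 7 of 9 correlated best with their own number, a hint from the data and not the design. With 3 libraries a group, GCLC and GLRX were the members whose calls in PM2.5 against control depended most on 1 library. In lactoferrin plus PM2.5 against control GCLC depended most on 1 library, and GLRX was called in each of 21 alternatives. GCLC and GLRX rested on 289 to 864 rebuilt reads, and the part of this depth was not tested.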

Other observations

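Ratios between members with different roles, chosen after their values were seen, also set the exposed libraries apart. GSR over GSS was 4.55, 4.85 and 4.76 with lactoferrin plus PM2.5, 4.50, 4.60 and 4.52 with PM2.5 and 2.99, 2.90 and 3.16 in control. The reductase thus stood higher against the synthetase in every exposed library. GSTP1 over MGST1 was 3.52, 3.205 and 2.72 with lactoferrin plus PM2.5, 3.46, 3.52 and 3.23 with PM2.5 and 17.0, 15.3 and 13.9 in control. By FPKM the cytosolic transferase stood above the membrane-bound one in all 9 libraries, by a smaller ratio in the 6 exposed. By rebuilt reads, not divided by length, GSTP1 was above MGST1 in control but below it in the 6 exposed libraries. PM2.5 replicate 1 had 7133 reads of GSTP1 and 8028 of MGST1. The size of both ratios, and which transferase is ahead in exposed libraries, depends on the exon lengths behind FPKM. These lengths are the same in every library. No test was made on these ratios.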
